A study of Mus musculus with 16 samples.

Results

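Immediate early transcription factors are genes that resting cells switch on within minutes of a stimulus. The members described here were taken by gene symbol and were Egr1, Nr4a1, Fos, Fosb, Jun, Junb, Jund, Atf3, Ier2 and Ier3. All 10 were among the 10296 genes of the deposited table, and all 10 were among the 8299 genes with enough signal to be tested. The table covered Ly6G+ neutrophils of C57BL/6 mice, sorted by flow cytometry on CD45, CD11b, Ly6G and the dead-cell dye DAPI.

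The cells came from lung, spleen or blood of germ free (GF) mice, which carry no microbes, or of specific pathogen free (SPF) mice, which have a microbiota. There were 3 libraries each from GF lung, SPF lung, GF spleen and SPF spleen, and 2 each from GF blood and SPF blood, 16 in all. Nothing in the labels ties a library to its own animal, so the spread behind each p-value is that between libraries and may be technical. How lung and spleen were dissociated, and how long cells spent between dissection and lysis, are not given in the sources used here, and tissue handling is itself known to switch these genes on.

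In resting cells, immediate early genes are held ready for transcription, and their induction needs no new protein synthesis. MAP kinase, calcium and cyclic AMP signals activate factors that already sit at their promoters, chiefly serum response factor with its ternary complex partners and CREB. The proteins then form the AP-1 dimers (Fos, Jun and Atf families) and the EGR and NR4A factors, which in turn control genes of inflammation, adhesion and survival, and most of the mRNAs are short-lived. In neutrophils, adhesion, chemoattractants and microbial products are known inducers.

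RefSeq promoter windows (build GRCm38.p6, the 250 bases before the RefSeq start of each gene) were at hand for 8 of the 10 members. Of these, 4 are shown because they differ in the letters TGACG, the core that CREB and ATF factors recognise. Fos and Nr4a1 hold several copies, Junb holds 1, and Jun, a member that was also higher in lung, holds none. Each sequence runs 5′ to 3′ on the gene's strand, and capitals mark TGACG on either strand (CGTCA where it lies on the other strand) and, in Nr4a1, the EGR site GCGNGGGCG, there on the other strand.
Fos, chr12:85473640-85473889, + strand: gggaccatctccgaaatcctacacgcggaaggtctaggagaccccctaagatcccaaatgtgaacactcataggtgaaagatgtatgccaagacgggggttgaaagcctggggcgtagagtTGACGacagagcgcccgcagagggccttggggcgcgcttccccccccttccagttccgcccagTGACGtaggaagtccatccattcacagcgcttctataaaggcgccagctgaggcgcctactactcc
Nr4a1, chr15:101266596-101266845, + strand: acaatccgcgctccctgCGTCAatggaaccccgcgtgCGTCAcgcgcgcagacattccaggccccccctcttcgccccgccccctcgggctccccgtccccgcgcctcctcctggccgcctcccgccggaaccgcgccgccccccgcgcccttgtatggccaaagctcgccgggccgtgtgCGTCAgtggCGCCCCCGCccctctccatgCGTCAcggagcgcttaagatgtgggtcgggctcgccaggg
Junb, chr8:84978749-84978998, - strand: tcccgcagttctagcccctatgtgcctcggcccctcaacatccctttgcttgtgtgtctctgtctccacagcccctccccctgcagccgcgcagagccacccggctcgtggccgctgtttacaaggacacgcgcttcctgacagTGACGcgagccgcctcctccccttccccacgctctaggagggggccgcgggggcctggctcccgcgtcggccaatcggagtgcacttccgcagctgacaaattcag
Jun, chr4:95052223-95052472, - strand: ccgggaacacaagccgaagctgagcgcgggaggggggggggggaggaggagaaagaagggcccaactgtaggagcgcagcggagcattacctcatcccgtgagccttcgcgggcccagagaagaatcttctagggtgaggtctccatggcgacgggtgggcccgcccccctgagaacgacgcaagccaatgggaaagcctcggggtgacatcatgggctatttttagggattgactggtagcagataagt

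The Fos window held TGACG at 129 to 125 and at 66 to 62 bases before the start, and the TATA box letters TATAAA at 33 to 28 bases. The Nr4a1 window held TGACG in 4 places, the nearest 40 to 36 bases before the start, and the EGR site at 60 to 52 bases. The RefSeq starts of Nr4a1 and Atf3 lie inside the longer genes drawn by GENCODE, and the whole Jund window lies before the GENCODE start, with a gap between them. With Fosb and Atf3, which held 1 copy each, TGACG was found in 5 of the 8 member windows, against 17.8% of all 32851 RefSeq windows. The EGR site was in 2 of the 8 (Fosb and Nr4a1) against 4.70% of windows, and TATAAA in 1 (Fos) against 12.4%. The CArG box, the full element TGACGTCA and the AP-1 site TGANTCA were in 0 of the 8 windows, against 1.47%, 1.55% and 6.75% of all windows. All motifs were searched on both strands, TGACG is contained in TGACGTCA, and the absence of a match says only that these letters are not in this window.

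Levels below are normalised counts, which are deposited values less their offset of 0.5 reads. Depth, as reads recovered per library, was 504208 to 1147991 in lung, 104213 to 640596 in spleen and 132798 to 3033941 in blood, so 1 read was worth between 0.392 and 7.62 normalised counts. There were 5 libraries under 250000 reads: GF spleen replicates 1 and 4, SPF spleen replicates 1 and 4, and GF blood replicate 3. All 12 neutrophil markers were in the table and none was at 0 throughout a group. Their summed level was 44135 to 52783 in GF lung, 42898 to 63322 in SPF lung, 47797 to 82533 in GF spleen, 50272 to 76348 in SPF spleen, 62405 to 80989 in GF blood and 83032 to 99089 in SPF blood.

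Set against blood, lung neutrophil libraries held more RNA of nearly every member. In GF mice 9 of the 10 members were higher in lung (Jund was not), where 7.83% of all tested genes were called higher. In SPF mice 8 of the 10 were higher in lung (Fos and Jund were not), where 12.5% of all genes were. The median difference of the members in log2(value + 1), lung minus blood, was 2.72 in GF and 1.55 in SPF mice, against 0.15 and 0.16 over all tested genes. In lung minus spleen, 9 of 10 members were higher in lung in GF mice (background 8.03%) and 9 of 10 in SPF mice (background 7.68%), Jund being the exception in each. In spleen minus blood, 1 member was higher in GF mice (Nr4a1, background 0.47%), and in SPF mice 0 were higher (background 3.05%) and 1 was lower (Ier2, background 4.01%). At an unadjusted p under 0.05 in either direction were 2 members in GF and 4 in SPF mice. Of all 8299 tested genes, 1001 in GF and 1938 in SPF mice were. The p-values are from limma, adjusted by Benjamini-Hochberg over all 8299 tested genes, with a threshold of 0.05. In bulk libraries of this kind, fewer cells of a type and less RNA per cell cannot be told apart.

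**Figure D1:**
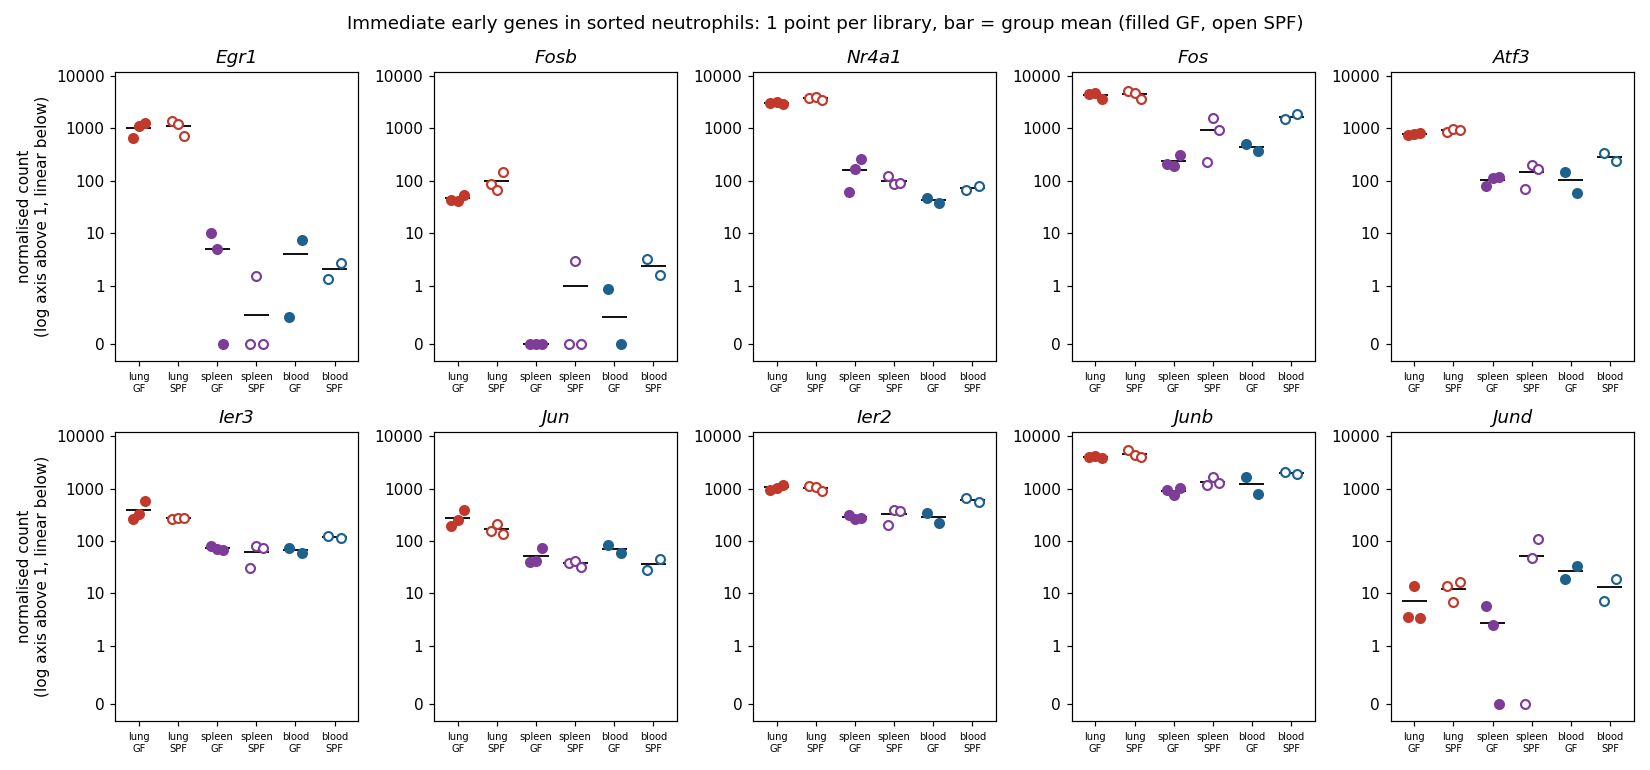
Normalised counts of the 10 members (vertical axis, logarithmic above 1 and linear below) in lung, spleen and blood of GF (filled) and SPF (open) mice, with 1 point for each of the 16 libraries and a bar at the group mean. In 9 of the panels every lung point lies above every spleen and blood point of the same microbial status, while Jund shows no such step.

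Egr1 (ENSMUSG00000038418, chromosome 18, 34859823 to 34864984, + strand, GRCm38) encodes a zinc-finger factor that is a classic marker of MAP kinase signalling through serum response factor. It measured 669, 1091 and 1293 normalised counts in GF lung, 10.1, 4.94 and 0 in GF spleen, and 0.468 and 7.41 in GF blood. The SPF values were 1358, 1239 and 704 in lung, 0, 1.49 and 0 in spleen, and 1.35 and 2.74 in blood. Every lung library was far above every spleen and blood library, while the spleen and blood values, which overlapped, stood on 1 to 10 reads per group. GF blood held 2 reads against 2678 in GF lung, so the ratio of lung to blood over the pooled reads of each group, 1150, has a counting interval of 318 to 9497 (exact Clopper-Pearson, 95% confidence, counting error only). Pooling gives GF blood replicate 2, with 2555255 reads against 132798 in replicate 3, most of the weight. With libraries weighted equally the means were 1017 ± 318 in GF lung (SD, n = 3) and 3.94 ± 4.91 in GF blood (SD, n = 2), a ratio of 258. In SPF mice the pooled ratio was 497 (270.0 to 1039), on 2428 reads in lung and 10 in blood. The fitted differences, lung minus blood, were 7.76 (SE 0.61, adjusted p = 1.80e-09) in GF and 8.38 (SE 0.61, adjusted p = 5.51e-10) in SPF mice. Against spleen they were 7.07 (SE 0.55, adjusted p = 1.11e-09) and 8.15 (SE 0.55, adjusted p = 1.49e-10), and at so few spleen and blood reads they depend on the offset and are no bound. GF lung and SPF lung overlapped (difference -0.11, SE 0.55, adjusted p = 0.999).

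Nr4a1 (ENSMUSG00000023034, chromosome 15, 101254269 to 101274795, + strand) encodes the orphan nuclear receptor Nur77, a factor known to restrain inflammatory gene expression in myeloid cells. It measured 3064, 3245 and 2966 in GF lung, 60.9, 165 and 264 in GF spleen, and 47.2 and 37.0 in GF blood. In SPF mice the values were 3734, 3988 and 3534 in lung, 122, 86.4 and 89.3 in spleen, and 67.3 and 79.6 in blood. The order lung, spleen, blood held without overlap in each microbial status. The mean in lung was 73.4 times that in blood in GF mice (difference 6.10, SE 0.37, adjusted p = 2.79e-10) and 51.1 times in SPF mice (5.66, SE 0.37, adjusted p = 6.78e-10). It was 18.9 times that in spleen in GF mice (4.44, SE 0.33, adjusted p = 4.48e-09) and 37.8 times in SPF mice (5.21, SE 0.33, adjusted p = 4.41e-10). Nr4a1 was also the 1 member called higher in spleen than in blood, in GF mice (1.66, SE 0.37, adjusted p = 0.0284), and in SPF mice that difference was 0.44 (SE 0.37, adjusted p = 0.492). The GF spleen call was the least secure of these: it was lost without either GF blood library, without SPF blood replicate 3, and without GF spleen replicate 3 or 4 (adjusted p = 0.051 to 0.316). Here and below, where leaving out a library leaves a blood group with 1, that lone library is assumed to vary like the other groups, whose spread the model shares. At equal depth, with every library thinned to 100000 reads, the difference was 1.34 (adjusted p = 0.129).

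Fos (ENSMUSG00000021250, chromosome 12, 85473890 to 85477273, + strand) encodes an AP-1 subunit that pairs with Jun proteins to bind DNA. It measured 4637, 4772 and 3683 in GF lung, 208, 195 and 306 in GF spleen, and 509 and 378 in GF blood. The SPF mice gave 5226, 4659.9 and 3579 in lung, 229, 1609 and 949.9 in spleen, and 1481 and 1867 in blood. Lung was above spleen and blood without overlap in each status, but the lower tissues were set differently: in GF mice spleen lay below blood, and in SPF mice the spleen libraries were spread from 229 to 1609 and overlapped blood. In GF mice the mean in lung was 9.84 times that in blood (3.29, SE 0.62, adjusted p = 0.00588) and 18.5 times that in spleen (4.21, SE 0.56, adjusted p = 0.000450). In SPF mice it was 2.68 times that in blood (1.41, SE 0.62, adjusted p = 0.149) and 4.83 times that in spleen (2.64, SE 0.56, adjusted p = 0.0112). The SPF lung minus spleen call was lost when only the groups compared were fitted (adjusted p = 0.150). The SPF spleen library at 229, replicate 1, was the shallowest of the series. Without it the SPF lung minus blood difference was again 1.41, with an SE of 0.23 in place of 0.62, and passed (adjusted p = 2.29e-05), as did the GF spleen minus blood difference of -0.91 (adjusted p = 0.0304). Leaving out that lowest SPF spleen library by itself narrows the spread that the groups share, so these calls depend on that choice. The SPF lung minus blood difference also passed without SPF spleen replicate 2 (adjusted p = 0.0405), when spleen minus blood in SPF mice was -1.82 (adjusted p = 0.0406).

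Fosb (ENSMUSG00000003545, chromosome 7, 19302696 to 19310051, - strand), a close relative of Fos that also pairs with Jun proteins, was scarce outside the lung. It measured 43.5, 41.6 and 53.6 in GF lung, 0 in each of the 3 GF spleen libraries, and 0.935 and 0 in GF blood. In SPF mice its level was 86.7, 67.6 and 147 in lung, 0, 2.98 and 0 in spleen, and 3.16 and 1.57 in blood. All lung libraries were above all others. The SPF lung libraries lay above the GF lung libraries, as they also did for Nr4a1 and Atf3. None of these differences passed (adjusted p = 0.999 each). The share of all genes so separated is not given here, so no effect of status in lung can be read from it. Against GF spleen, with 0 reads, GF lung was at least 11.6-fold higher (floor of 3 reads over the group). The ratio of lung to blood over pooled reads was 51.5 in GF mice (counting interval 13.95 to 430, on 120 reads in lung and 2 in blood) and 45.3 in SPF mice (24.8 to 91.9, on 243 and 11 reads). With libraries weighted equally the ratios were 98.9 in GF and 42.4 in SPF mice. The fitted differences, lung minus blood, of 3.90 in GF and 4.80 in SPF mice (SE 0.60 each, adjusted p = 1.74e-05 and 5.14e-07) are no bound at these counts. GF lung minus SPF lung was -1.03 (SE 0.53, adjusted p = 0.999).

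Among the Jun family, whose proteins pair with Fos proteins, Jun and Junb were higher in lung and Jund was not. Jun (ENSMUSG00000052684, chromosome 4, 95049034 to 95052222, - strand, 1 exon) measured 192, 249 and 383 in GF lung, 40.6, 42.0 and 72.1 in GF spleen, and 82.3 and 59.3 in GF blood. SPF mice had 158, 207 and 138 in lung, 38.1, 41.7 and 32.3 in spleen, and 27.6 and 45.7 in blood. Lung stood apart, and spleen and blood overlapped in each status. The mean in lung was 3.88 times that in blood in GF mice (1.86, SE 0.35, adjusted p = 0.000312) and 4.58 times in SPF mice (2.19, SE 0.35, adjusted p = 2.81e-05). Thinned to 100000 reads, the GF difference was 1.47 (adjusted p = 0.116). Jun shares 689 bases with the antisense gene Junos, and since no strand-aware counting is stated, reads of the pair cannot be told apart.

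Junb (ENSMUSG00000052837, chromosome 8, 84974484 to 84978718, - strand), which can act against Jun in the same dimers and restrains granulocyte proliferation in mice, had the highest level per kilobase of the Jun genes in every group. It measured 3948, 4279.7 and 3804 in GF lung, 959, 756 and 1009 in GF spleen, and 1645 and 800.0 in GF blood. The values in SPF mice were 5483, 4444 and 4017 in lung, 1151, 1647 and 1265 in spleen, and 2087 and 1867 in blood. Lung was above both other tissues without overlap, and in SPF mice spleen lay below blood. The mean in lung was 3.28 times that in blood in GF mice (1.80, SE 0.23, adjusted p = 9.44e-07) and 2.35 times in SPF mice (1.22, SE 0.23, adjusted p = 0.000233). It was 4.42 times that in spleen in GF mice (2.15, SE 0.20, adjusted p = 5.10e-09) and 3.43 times in SPF mice (1.78, SE 0.20, adjusted p = 1.56e-07). Junb overlaps Prdx2 on the other strand by 351 bases, which makes its level uncertain by the reads of that stretch.

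Jund (ENSMUSG00000071076, chromosome 8, 70698949 to 70700616, + strand, 1 exon), the Jun gene known for steady expression in resting cells, had few reads and the widest spread. It measured 3.62, 14.2 and 3.46 in GF lung, 5.73, 2.47 and 0 in GF spleen, and 18.7 and 33.8 in GF blood. The SPF libraries held 13.7, 7.004 and 16.4 in lung, 0, 47.2 and 108 in spleen, and 7.23 and 18.8 in blood. The GF lung and GF spleen libraries lay below GF blood, and within SPF spleen 1 library was at 0 and another at 108. None of its 13 comparisons passed, with differences from -3.50 to 1.58 and standard errors of 0.51 to 1.3. Without SPF spleen replicate 1, its SPF library at 0, Jund was lower in GF than in SPF spleen (-3.73, adjusted p = 0.000501) and lower in SPF lung than in SPF spleen (-2.46, adjusted p = 0.00713). In the same fit it was lower in GF lung than in GF blood (-1.88, adjusted p = 0.0436) and in GF spleen than in GF blood (-2.31, adjusted p = 0.0468), and higher in SPF spleen than in SPF blood (2.51, adjusted p = 0.0285). Leaving out the SPF spleen library at 0 by itself raises the SPF spleen mean and narrows its spread, so these calls depend on that choice. In GF spleen Jund stood on 2.13 reads over the group. Its SD in log2(value + 1) within groups averaged 1.18, against 0.29 to 0.97 for the other members. An antisense gene, Gm11175, covers 919 bases of Jund, and without strand the reads of the pair cannot be told apart.

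Atf3 (ENSMUSG00000026628, chromosome 1, 191170296 to 191218039, - strand) encodes a stress-induced factor that dimerises with Jun proteins and is known to dampen cytokine genes in myeloid cells. It measured 751, 787 and 805 in GF lung, 81.2, 114 and 120.1 in GF spleen, and 145 and 59.3 in GF blood. The SPF levels were 863, 967 and 927 in lung, 68.6, 199.6 and 169 in spleen, and 336 and 240.4 in blood. The lung libraries formed a narrow band above all others, GF spleen overlapped GF blood, and SPF spleen lay below SPF blood. The mean in lung was 7.66 times that in blood in GF mice (3.02, SE 0.35, adjusted p = 8.25e-07) and 3.19 times in SPF mice (1.69, SE 0.35, adjusted p = 0.00104). Against spleen it was 7.44 times in GF mice (2.87, SE 0.31, adjusted p = 2.57e-07) and 6.30 times in SPF mice (2.75, SE 0.31, adjusted p = 5.34e-07). Spleen minus blood in SPF mice was -1.06 (SE 0.35, adjusted p = 0.0636), and passed without any 1 of GF blood replicates 2 and 3 and SPF spleen replicates 2 and 4 (adjusted p = 0.0227 to 0.0433). Atf3 overlaps the small RNA gene Gm24748 by 108 bases.

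Ier2 (ENSMUSG00000053560, chromosome 8, 84661331 to 84662852, - strand, 1 exon) encodes a small nuclear regulator of transcription. It measured 961, 1048 and 1159 in GF lung, 309, 267 and 276 in GF spleen, and 343 and 222 in GF blood. In SPF animals it measured 1109.5, 1077 and 908 in lung, 206, 396 and 367 in spleen, and 671 and 562 in blood. Lung was again above the rest without overlap, and SPF spleen lay below SPF blood. Lung minus blood was 1.92 (SE 0.25, adjusted p = 1.15e-06) in GF and 0.74 (SE 0.25, adjusted p = 0.0335) in SPF mice, the smallest tissue difference called among the members. Spleen minus blood in SPF mice was -0.97 (SE 0.25, adjusted p = 0.0156), a mean of 323 ± 102 in spleen (SD, n = 3) and 616 ± 77.2 in blood (SD, n = 2). That call was lost without SPF spleen replicate 1 (-0.68, adjusted p = 0.0789) and without either SPF blood library (adjusted p = 0.0516 and 0.292). The SPF lung minus blood call was lost without either SPF blood library and without SPF lung replicate 1 or 2 (adjusted p = 0.0896 to 0.237).

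Ier3 (ENSMUSG00000003541, chromosome 17, 35821684 to 35822923, + strand), also known as IEX-1, encodes a membrane protein that modulates apoptosis and is thus a member by its induction and not by binding DNA. It measured 261, 327 and 590.1 in GF lung, 81.2, 69.1 and 66.1 in GF spleen, and 74.4 and 59.3 in GF blood. Its SPF values were 264, 279 and 280.1 in lung, 30.5, 80.4 and 75.2 in spleen, and 123 and 114 in blood. Lung lay above the other tissues, and spleen overlapped blood in GF mice but lay below it in SPF mice. Lung minus blood was 2.41 (SE 0.34, adjusted p = 3.62e-06) in GF and 1.203 (SE 0.34, adjusted p = 0.0105) in SPF mice. The SPF call was lost without either SPF blood library (adjusted p = 0.0733 and 0.0847). Spleen minus blood in SPF mice was -0.97 (SE 0.34, adjusted p = 0.0739), and passed without SPF spleen replicate 2 or 4 (adjusted p = 0.0452 and 0.0406). Lung minus spleen was 2.30 (SE 0.30, adjusted p = 1.14e-06) in GF and 2.17 (SE 0.30, adjusted p = 2.98e-06) in SPF mice.

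**Figure D2:**
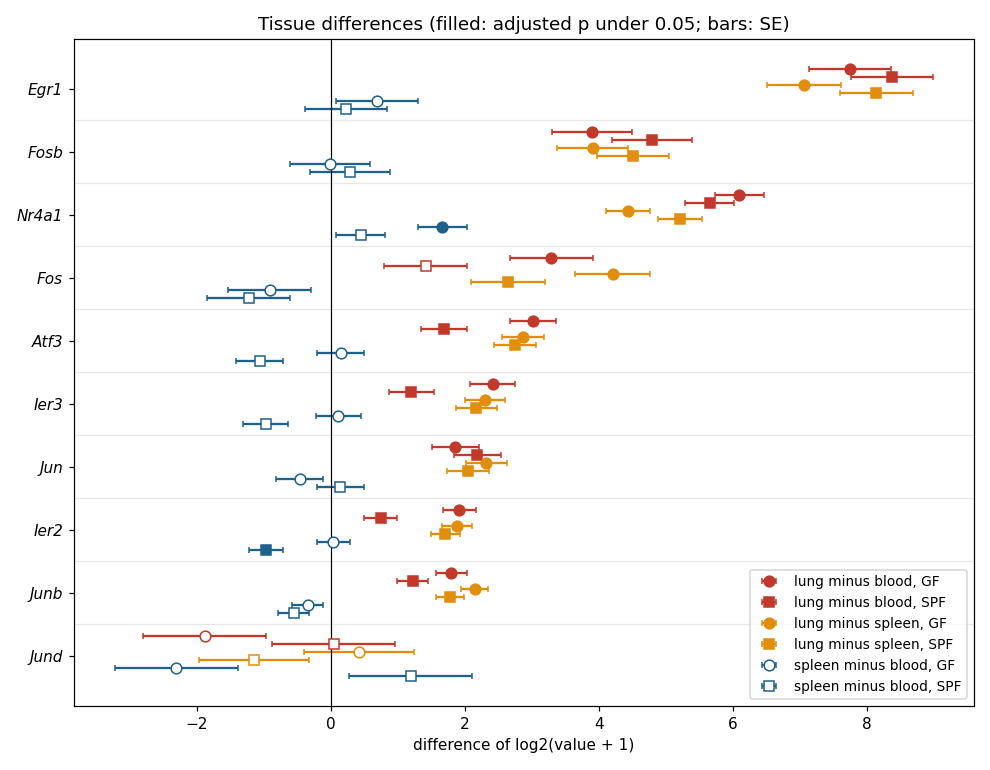
Difference between tissues in log2(value + 1) for each member (horizontal axis) with its standard error, for lung minus blood, lung minus spleen and spleen minus blood in GF and SPF mice. Filled symbols passed an adjusted p of 0.05. Lung minus blood and lung minus spleen lie to the right of 0 for all members but Jund, led by Egr1 and Nr4a1, while spleen minus blood lies on both sides of 0.

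Without a test, the groups can also be described by whether their libraries overlap. Lung lay wholly above blood for 9 of 10 members in GF mice (28.8% of all genes), with Jund wholly below (14.6%), and for 9 in SPF mice (29.6%), and wholly above spleen for 9 in GF (21.2%) and 9 in SPF mice (18.2%). Spleen lay wholly below blood for 4 members in SPF mice (Junb, Atf3, Ier2 and Ier3), where 23.7% of all genes did, and for 2 in GF mice (Fos and Jund), where 13% did. Nr4a1 was the 1 member with spleen wholly above blood in each status (10.2% of all genes in GF and 12.3% in SPF mice).

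RNA of other cells moved with the lung groups. The markers of lung structural cells (12 of 17 in the table) summed to 4918 to 11839 normalised counts in GF lung and 3084 to 6235 in SPF lung, against 12.3 to 35.5 in GF spleen, 14.9 to 23.5 in SPF spleen, 19.6 to 51.9 in GF blood and 18.8 to 33.4 in SPF blood. Of the 12, 7 were at 0 in all libraries of each spleen group, 3 were at 0 in each blood group and 0 in lung. The surfactant proteins Sftpa1 and Sftpd, the matrix protein Sparc and the endothelial claudin Cldn5 differed by 6.04 to 7.80 between GF lung and GF blood. Among the SPF lung libraries, replicate 3 had the most structural RNA (6235) and the least Egr1 (704), and replicate 1 the least structural RNA (3084) and the most Egr1 (1358). Among the GF lung libraries, replicate 2 had the least of both (4918 and 669). Fosb went the other way in SPF lung, being highest in replicate 3 (147, against 86.7 in replicate 1 and 67.6 in replicate 2). In the same libraries Fos (5226, 4659.9 and 3579) and Junb (5483, 4444 and 4017) fell from replicate 1 to replicate 3. In GF lung Jun (192), Atf3 (751), Ier2 (961) and Ier3 (261) were, like Egr1, lowest in replicate 2. Fosb (41.6) was lowest in replicate 3, and Nr4a1 (2966), Fos (3683), Junb (3804) and Jund (3.46) in replicate 4. Some members thus shared an order of the lung libraries with structural RNA at its low end, and others did not. Erythroid and platelet markers (9 of 11 in the table) were lower in lung than in blood. They summed to 47.8 to 2080 in GF lung and 432 to 1792 in SPF lung, against 81835 to 99526 in GF blood and 44309 to 70443 in SPF blood. Their sum was 48.1 to 21992 in GF spleen and 70.5 to 107 in SPF spleen. The part of these cells in the members' differences was not tested.

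Macrophage markers (8 of 11 in the table) summed to 880.2 to 943 in GF lung and 763 to 905 in SPF lung, against 1095 to 1375 in GF spleen, 1006 to 1284 in SPF spleen, 874 to 1317 in GF blood and 515 to 678 in SPF blood. Of the 7 tested, 2 were higher in lung than in blood in GF mice (Vcam1 at 3.05 and Mertk at 2.61, background 7.83%) and 4 in SPF mice (background 12.5%). B cell markers (7 of 8) summed to 457 to 513 in GF lung and 483 to 672 in SPF lung, against 465 to 563 in GF blood and 625 to 680.2 in SPF blood. Of the 7, 1 was higher in lung in GF mice (Cd79b, 2.55, background 7.83%) and 5 in SPF mice (background 12.5%). Only 2 of 8 T and NK cell markers and 1 of 5 dendritic cell markers were in the table, at sums of at most 16.7 and 4.70 in any library. Of the 12 neutrophil markers, 1 was higher (Mxd1, 0.61) and 2 were lower (Cxcr2, -1.04, and Mmp9, -0.94) in GF lung than in GF blood. Among SPF libraries 3 were higher (Csf3r, Itgam and Mxd1, 0.53 to 1.35) and 5 were lower in lung than in blood. The lower ones were Ly6g, the antigen of the sort (-1.78), Cxcr2 (-1.46), Retnlg (-1.45), Mmp8 (-0.71) and Mmp9 (-0.57). Ly6g was also lower in lung than in spleen, with differences of -2.23 in GF (adjusted p = 0.00479) and -1.61 in SPF mice (adjusted p = 0.0445).

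Heat shock chaperones, which tissue handling can also induce, were described beside the members. Of 12 on the list 11 were in the table, and they summed to 3206 to 3323 in GF lung and 2355 to 3357 in SPF lung, against 2361 to 3039 in GF spleen, 975 to 1528 in SPF spleen, 2833 to 3022 in GF blood and 1767 to 2761 in SPF blood. Of the 9 tested, 0 were called in lung minus blood in GF mice (background 7.83% higher). There 2 were at an unadjusted p under 0.05, against 1817 of all 8299 genes. In SPF mice 1 was higher (Hspa5, the endoplasmic reticulum chaperone, 0.89, background 12.5%). In lung minus spleen 2 were higher in GF (background 8.03%) and 5 in SPF mice (background 7.68%). In spleen minus blood in SPF mice 2 were lower (Hspa8, -0.99, and Dnaja1, -1.15, background 4.01%). In GF minus SPF spleen, which shares the SPF spleen libraries with that comparison, 2 were higher (Hspa8, 1.49, and Dnaja1, 1.34, background 0.325% in either direction). The list's median in lung minus blood was 0.53 in GF and 0.41 in SPF mice, against 2.72 and 1.55 for the members. In lung minus spleen it was 0.78 in GF and 1.04 in SPF mice, against 2.60 and 2.41 for the members. The inducible chaperone Hspa1a differed by 1.83 (adjusted p = 0.143) in GF and 1.70 (adjusted p = 0.121) in SPF mice in lung minus blood and did not pass. The part of handling in the members' levels was not tested.

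The other question the design asks is whether microbial status matters within a tissue. In blood, 2 of 10 members were lower in GF than in SPF mice (Atf3 and Ier2, background 0.53%) and 0 were higher (background 0.795%). At an unadjusted p under 0.05 in either direction were 6 members, against 1367 of all 8299 tested genes. In spleen and in lung 0 of 10 were called (background 0.325% and 0.0241% in either direction). An unadjusted p under 0.05 was found for 3 members in spleen (1032 of all 8299 genes) and 1 in lung (332 of all genes). For the mean over the 3 tissues 1 member was lower in GF mice (Junb, background 0.446%). The median difference of the members, GF minus SPF, was -0.75 in blood, -0.24 in spleen and -0.16 in lung, against 0.02, 0.01 and 0.03 over all genes.

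Atf3 averaged 102 ± 60.3 in GF blood and 288 ± 68.0 in SPF blood (SD, n = 2 each), a difference of -1.56 (SE 0.38, adjusted p = 0.0412). Ier2 averaged 282 ± 85.2 in GF blood and 616 ± 77.2 in SPF blood (SD, n = 2 each), a difference of -1.14 (SE 0.27, adjusted p = 0.0308). The lower of the GF blood libraries in each case, replicate 3, had 132798 reads, so the Atf3 level of 59.3 there stood on 8 reads. Without it, with GF blood replicate 2 alone in its group, the differences were -0.97 for Atf3 (adjusted p = 0.585) and -0.84 for Ier2 (adjusted p = 0.465). Both calls were also lost without SPF blood replicate 3 (adjusted p = 0.431 and 0.374) and without SPF blood replicate 4 (adjusted p = 0.0993 for each). The Atf3 call was further lost without GF spleen replicate 3, without any 1 of the GF lung libraries, and without SPF lung replicate 1 or 3 (adjusted p = 0.0512 to 0.0594). For Junb the difference over the 3 tissues was -0.52 (SE 0.13, adjusted p = 0.0345), made up of -0.78 in blood, -0.57 in spleen and -0.20 in lung, none of which passed alone. It was lost when any of 8 libraries was left out: GF blood replicate 3, either SPF blood library, GF spleen replicate 3, SPF spleen replicate 2, GF lung replicate 2 or 4, or SPF lung replicate 1 (adjusted p = 0.0737 to 0.235).

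In blood, 7 of 10 members lay wholly lower in GF than in SPF libraries (Nr4a1, Fos, Fosb, Junb, Atf3, Ier2 and Ier3), where 30.5% of all genes did, and Jun lay wholly higher, where 18.7% did. Fos had the largest of these gaps, with 509 and 378 in GF blood and 1481 and 1867 in SPF blood, and did not pass (-1.91, SE 0.68, adjusted p = 0.200). The place of Fosb stood on 2 reads in GF blood, with 0 in replicate 3. There 1 read is worth 7.41 normalised counts, more than either SPF blood library held (3.16 and 1.57), so depth limits that gap. In spleen Fos was at 208, 195 and 306 in GF mice against 229, 1609 and 949.9 in SPF mice (-1.60, SE 0.56, adjusted p = 0.272). In lung it was level (-0.03, SE 0.56, adjusted p = 0.999). Without SPF spleen replicate 1 Fos was lower in GF mice in blood (-1.91, adjusted p = 1.91e-05) and in spleen (-2.40, adjusted p = 9.66e-08). That library, at 229, is the SPF spleen library that lay within the GF spleen range. Leaving it out by itself raises the SPF spleen mean and narrows the shared spread, so both calls depend on that choice. The blood difference itself did not change.

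Other members changed call when 1 library was left out. Junb in blood (-0.78, adjusted p = 0.105) passed without GF blood replicate 2 (-1.30, adjusted p = 0.00709), which leaves the shallow GF library alone, its spread assumed from the other groups. Jun had the opposite sign, at 0.99 in blood (SE 0.38, adjusted p = 0.182) and 0.68 over the 3 tissues (SE 0.19, adjusted p = 0.0726). Over the 3 tissues Jun passed without SPF spleen replicate 1 or GF spleen replicate 1 (adjusted p = 0.0315 and 0.0390). Leaving out SPF spleen replicate 1, the lowest of its group for Fos, Atf3 and Ier2, by itself raises their SPF means. In that fit Fos (-1.45), Atf3 (-0.87) and Ier2 (-0.51) were also lower in GF mice over the 3 tissues (adjusted p = 3.29e-08, 0.000961 and 0.0134). Atf3 passed there too without GF blood replicate 2 (-0.92, adjusted p = 0.0126). Nr4a1 was higher in GF than in SPF spleen without GF spleen replicate 1 (1.07, adjusted p = 0.0307).

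**Figure D3:**
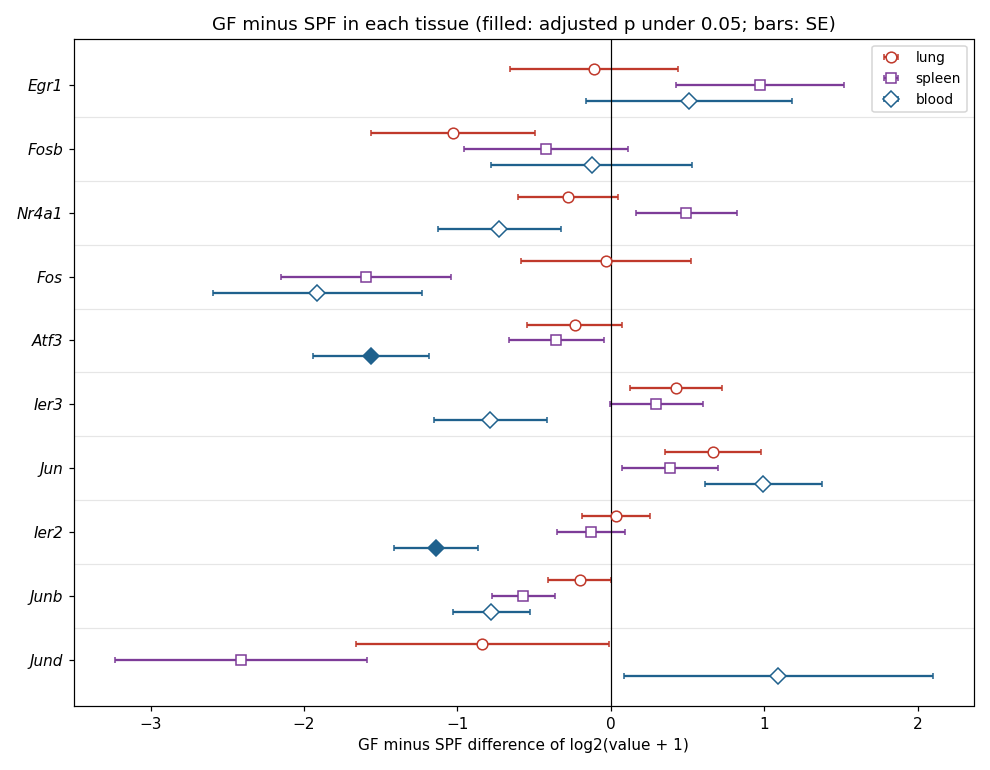
Difference between GF and SPF mice in log2(value + 1) for each member (horizontal axis) with its standard error, in lung, spleen and blood. Filled symbols passed an adjusted p of 0.05: Atf3 and Ier2 in blood.

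Whether a tissue difference itself differed between GF and SPF mice was tested as an interaction in the same model. Of 30 such tests (10 members, 3 pairs of tissues) 0 passed. The background was 0.012% in lung against blood, 0.759% in spleen against blood and 0.012% in lung against spleen. In the same order 3, 5 and 0 members had an unadjusted p under 0.05. Of all 8299 genes 623, 1185 and 561 did. The lung minus blood difference of Fos was larger in GF than in SPF mice by 1.88 (SE 0.88, adjusted p = 0.672). Without SPF spleen replicate 1 the same value passed (adjusted p = 0.00526), as did the difference of 2.37 for lung minus spleen (adjusted p = 9.29e-05) and that of Jund for spleen minus blood (-4.82, adjusted p = 0.00287). These calls depend on leaving out the SPF spleen library that was lowest for both genes. Without GF spleen replicate 1 the spleen minus blood difference of Nr4a1 was larger in GF mice by 1.79 (adjusted p = 0.0165).

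Relatives and partners of the members were followed in lists, which were chosen with earlier results of these data known. Of all tested genes, 7.83% were called higher in lung than in blood in GF mice and 12.5% in SPF mice. Of the AP-1 and ATF partners (13 of 17 tested), 1 was higher in lung than in blood in GF mice (Fosl2, a Fos relative, 1.58, adjusted p = 0.00246) and 0 were lower, and in SPF mice 3 were higher and 2 lower. Of the EGR and NR4A relatives and corepressors (3 of 7 tested), 2 were higher in GF mice (Egr2 at 3.81, adjusted p = 0.000251, and Nr4a2 at 3.52, adjusted p = 0.000387) and the same number in SPF mice. The kinases and factors upstream of the members (23 tested) had 0 higher and 1 lower in GF mice (Map2k3, a kinase of the p38 pathway, -0.93, adjusted p = 0.0111). In SPF mice 0 were called, with 3 at an unadjusted p under 0.05 (2577 of all 8299 genes). Their median lung minus blood difference was 0.19 in GF and 0.41 in SPF mice, against 0.15 and 0.16 over all genes.

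Other rapidly induced genes (19 tested) were higher in lung than in blood in 9 cases in GF mice and 12 in SPF mice, and lower in 2 cases each, with medians of 1.92 and 2.09. Among them Csrnp1 differed by 4.41 (adjusted p = 2.00e-08), Btg2, a brake on proliferation, by 3.08 (adjusted p = 2.00e-08), Trib1 by 3.00 (adjusted p = 3.88e-08) and Gadd45b by 2.78 (adjusted p = 1.71e-08). Of 9 tested known targets of AP-1 or Egr1 (10 on the list), 7 were higher in lung in each status, and 1 was lower in GF and 2 in SPF mice. The share of all genes higher in lung was 7.83% in GF and 12.5% in SPF mice. Whether the members act on these targets was not tested. In order of adjusted p, the first 4 in GF mice were the chemokine Cxcl2 (8.08, adjusted p = 1.55e-12), the cytokines Tnf (4.83, adjusted p = 1.01e-06) and Il1b (2.81, adjusted p = 2.63e-06) and the urokinase receptor Plaur (2.004, adjusted p = 3.26e-06). Mmp9, the gelatinase that was lower, stands on this list and among the neutrophil markers. In GF minus SPF blood, 0 of the 19 rapidly induced genes were called, with 4 at an unadjusted p under 0.05 (1367 of all 8299 genes). Of the 9 targets 1 was lower (Il1b, -1.56, adjusted p = 0.0216, background 0.53%).

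**Figure D4:**
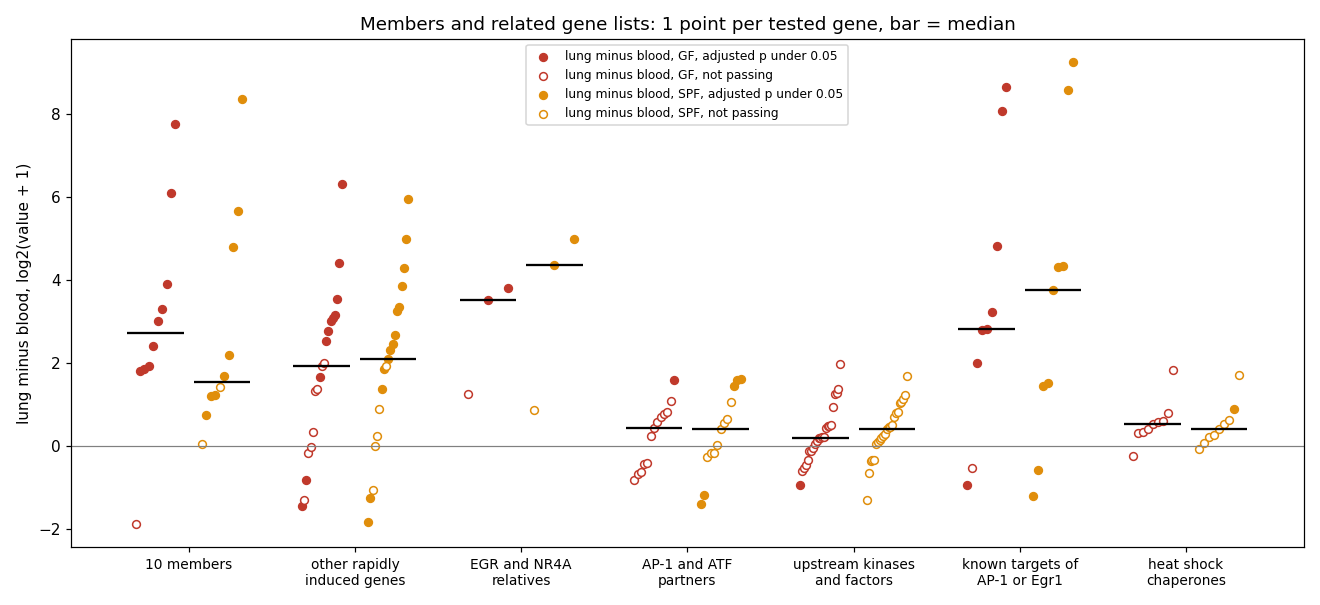
Lung minus blood in log2(value + 1) (vertical axis) for every tested gene of the members and the related lists, in GF and SPF mice, with a bar at each median. Filled points passed an adjusted p of 0.05. The members, the other rapidly induced genes, the EGR and NR4A relatives and the known targets have medians from 1.55 to 4.37, while the partners, the upstream kinases and the chaperones have medians from 0.19 to 0.53.

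Levels of different genes can be set side by side only per length, here as normalised counts per kilobase of merged GENCODE exons. In GF lung Fos (1855 ± 252 per kilobase, SD, n = 3), Junb (1743 ± 106) and Nr4a1 (881 ± 40.3) were highest and Jund (4.25 ± 3.67) lowest. In SPF lung Junb (2019.9 ± 328) and Fos (1908 ± 356) led, and in both lung groups Fos and Junb overlapped. In GF blood the order began with Junb (531 ± 259.8, n = 2), Fos (189 ± 39.6) and Ier2 (186 ± 56.0), Fos and Ier2 being within their spread, and ended with Fosb (0.0749 ± 0.106). In SPF blood it began with Junb (859 ± 67.4), Fos (712 ± 116) and Ier2 (405 ± 50.7). Nr4a1 stood in place 3 of 10 in both lung groups and in place 8 in GF blood and 6 in SPF blood.

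The genes whose pattern over the 16 libraries was nearest to each member were found by the root-mean-square difference of log2(value + 1), each gene centred on its own mean. The values describe these libraries, which share depth and tissue. Nearest to Atf3 were the cytokine Il1b (0.222), Gadd45b (0.416) and Plaur (0.448), and nearest to Fos were Il1b (0.525), Tiparp (0.709) and Gadd45b (0.729). Plaur was also among the nearest 3 to Ier2 (0.324, after Ndel1 at 0.301) and to Ier3 (0.328, after mt-Co1 at 0.321). For Egr1 they were Gpx3 (0.676), Inmt (0.688) and Cxcl2 (0.722), for Nr4a1 Slc43a3 (0.711), Tnfaip3 (0.730) and Il1a (0.734), and for Fosb Nr4a2 (0.538), Cd34 (0.545) and Traf1 (0.561). Jun lay nearest to Tgoln1 (0.412), Tlr2 and Cnih1, Junb to Slc3a2 (0.291), Hcar2 and Srsf5, and Jund to Ier5 (0.478), Bcl3 and Klhdc2. Among the members themselves, Junb and Ier2 were the closest pair (0.264). Egr1 lay far from most members, its nearest being Nr4a1 at 1.58.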

How the data were processed

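Per the labels' protocols, RNA of sorted neutrophils was amplified with a low-input kit, not stated to keep strand, and read from both ends. Per the submitters' processing notes the authors used mm10 as the mouse assembly, with CASAVA, RSEM 1.3.1 and limma. The annotation, the gene filter and the scaling are not stated. The deposited values are a linear signal per gene and library with no unit in the header. In each library they step by what 1 read is worth above an offset of 0.5 reads. Reads were recovered from these steps, and 91.4% to 98.7% of the values under 10 reads lay within 0.05 of a whole read. This was too few in part of the libraries for the planned count test, which was not run.

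Differences were fitted in limma 3.58.1 (R 4.3.3) on log2(value + 1), a scale that understates the change of low genes. The model held 6 group means over 16 libraries with a trended and robust prior. Genes had to reach a value of 10 in 2 or more libraries to be tested (1997 of 10296 did not), in 13 comparisons, two-sided, with Benjamini-Hochberg adjustment within each. The code was tested on simulated data. Coordinates are from GENCODE M21 (GRCm38), where 10275 identifiers matched, and promoter windows are from RefSeq. Itgam stands on 2 lines, of which the first was used.

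The members and lists were chosen with earlier results of these data known. Named were all members, up to 4 genes per list called in lung minus blood in GF mice in order of adjusted p, and the 3 genes nearest to each member. Chaperones, the neutrophil markers beyond lung minus blood in GF mice, and Il1b in GF minus SPF blood, were chosen after their values were seen. Same-numbered libraries of the same status did not deviate together, so the number was not used as a block. Alternatives changed the pseudocount, filter, scaling, prior, weights, block, depth and the libraries in the fit.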

Additional observations from a re-analysis of the deposited data

How the results depend on the processing

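Of 130 differences of a member in a comparison, 40 passed in the reported fit, 30 of them under all 31 alternatives tried. Of the 10 others none changed direction. Of the 90 that did not pass, 25 passed under some alternative and 34 changed sign under some. Leaving out 1 library at a time gave 9 to 10 called members in lung minus blood in GF mice and 6 to 9 in SPF mice. Lung minus spleen gave 9 to 9 in GF and 9 to 10 in SPF mice, and spleen minus blood 0 to 3 in GF and 0 to 4 in SPF mice. GF minus SPF gave 0 to 10 (reported 3 over 40 tests), and the interactions 0 to 3 (reported 0 over 30). Where this left 1 blood library in a group, it was assumed to vary like the other groups. The highest counts for status came without SPF spleen replicate 1, the shallowest library.

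Spleen minus blood in GF mice (reported 1) gave 0 with quantile scaling, without the trended and robust prior, with the replicate block and at 100000 reads, and 4 without the libraries under 250000 reads. In SPF mice (reported 1) it gave 3 with a value of at least 100, 2 with median-ratio or TMM scaling or array weights, and 0 with quantile scaling, the plain prior, only the groups compared, the replicate block within status, or without the shallow libraries. GF minus SPF gave 6 with a value of at least 100, 0 with the plain prior, 8 with array weights and 7 without the shallow libraries. The interactions gave 1 with only the groups compared, 1 with array weights and 3 without the shallow libraries. The cause of these changes was not tested.

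The replicate number did not mark pairs: over 9 pairs of the same number and status the correlations of deviations were -0.128 to 0.068, and 2 of 15 libraries correlated best with their own number. With the replicate block the counts were 9, 7, 0, 1, 9 and 9 for lung minus blood, spleen minus blood and lung minus spleen (GF before SPF in each), 4 for GF minus SPF and 0 for the interactions. Fos in GF lung minus blood did not pass with the block within status (adjusted p = 0.078), and Fos in SPF lung minus spleen passed neither so (adjusted p = 0.0982) nor with only the groups compared (adjusted p = 0.150). Quantile scaling moved the median of all genes in lung minus blood from 0.15 to -0.09 in GF and from 0.16 to -0.10 in SPF mice, and the share of higher calls in lung minus spleen from 78.9% to 64.9% in GF and from 79.4% to 65.7% in SPF mice, and in spleen minus blood in SPF mice from 43.2% to 57.1%. The edgeR test was not run, since too few low values were whole reads. Depth limits Egr1 and Fosb in spleen and blood, and Jund in lung, spleen and GF blood replicate 3.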
